A study of Mus musculus with 2 samples.

Results

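Spp1 Gpnmb macrophages of the mouse heart are cells that carry transcripts of Spp1 or Gpnmb beside those of the complement component C1q. A cell was taken as a member when it had at least 1000 unique molecular identifiers (UMIs, each standing for 1 captured RNA molecule), at least 500 genes and at most 10% mitochondrial UMIs, with at least 1 UMI of Spp1 and Gpnmb together and at least 3 of C1qa, C1qb and C1qc together. Cells with a UMI of Cd79a or Cd3e (B and T cells) or of Pecam1 or Cdh5 (endothelial cells), or with more than 3 UMIs of Dcn, Col1a1 and Col3a1 (fibroblasts), were left out. The rule found 123 members among the 10667 deposited cells, 13 of 5800 in the wild-type library and 110 of 4867 in the AC8 library. The other C1q-positive cells, which met every other part of the rule but had no Spp1 or Gpnmb UMI, numbered 520 in wild type and 563 in AC8 and are the main reference.

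Both groups were untreated C57/B6 mice. One group overexpressed AC8, adenylyl cyclase type 8, an enzyme that makes cyclic AMP, in cardiomyocytes according to the series title, and the other consisted of wild-type littermates. Mice were pooled within each genotype, and cardiac CD45+CD31- leukocytes, CD45-CD31- mesenchymal cells and CD45-CD31+ endothelial cells were sorted, combined at equal numbers and made into 1 droplet library per genotype with the 10x Genomics system. The title raises the question of inflammation in other cells of a heart whose cardiomyocytes carry the transgene. The number, sex and age of the mice are not in the labels used here. With 1 library per genotype, library and genotype cannot be told apart, nothing below has a replicate check, and no test was made. Adcy8, the gene of AC8, had 0 UMIs in the wild-type library and 1 in the AC8 library, so these cells, sorted without cardiomyocytes, give no check of the genotype labels. The libraries held 9664932 UMIs (wild type) and 11076564 UMIs (AC8), and the 3719 and 3723 cells that passed the depth filters had medians of 1930 and 2388 UMIs. The cells are listed by running number, so shared barcodes could not be counted, and 0 cells had identical profiles in both libraries. Intervals below are exact at 95% and cover counting error alone.

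Macrophages with this signature are known from obese adipose tissue, atherosclerotic plaques, fibrotic organs and injured hearts, where they are often called lipid-associated or TREM2 macrophages. TREM2 is a surface receptor for lipids and lipoproteins that signals through the adaptor TYROBP and the kinase SYK. Spp1 encodes osteopontin, a secreted phosphoprotein that binds integrins and CD44, Gpnmb a glycoprotein of endosomes and lysosomes, and Lgals3 galectin-3, a secreted lectin. The transcription factors MITF, TFEB and TFE3 are known to act on lysosomal genes and on Gpnmb through sites with the core letters CACGTG or TCATGTG.

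The promoter windows of both genes of the rule, of the receptor gene Trem2 and of Ctsd, which encodes the lysosomal protease cathepsin D and had the highest log2 ratio of the list of lysosomal hydrolases and membrane proteins below, are shown as the regulatory sequence behind the transcripts counted here. Each window holds 300 bases, from RefSeq on GRCm38.p6 and written along the gene's strand. Capitals mark matches on either strand to 4 motifs: CACGTG and TCATGTG (MITF, TFEB and TFE3), TGANTCA (the AP-1 factors FOS and JUN) and GAGGAAGT (PU.1, the macrophage factor encoded by Spi1).
Spp1, chr5:104434861-104435160, plus strand: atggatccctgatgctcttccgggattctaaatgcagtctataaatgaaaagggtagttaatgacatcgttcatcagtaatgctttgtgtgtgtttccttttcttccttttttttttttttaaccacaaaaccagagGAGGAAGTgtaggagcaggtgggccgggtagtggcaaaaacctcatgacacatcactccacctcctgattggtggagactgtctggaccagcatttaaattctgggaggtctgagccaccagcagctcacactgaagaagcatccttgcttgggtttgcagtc
Gpnmb, chr6:49036268-49036567, plus strand: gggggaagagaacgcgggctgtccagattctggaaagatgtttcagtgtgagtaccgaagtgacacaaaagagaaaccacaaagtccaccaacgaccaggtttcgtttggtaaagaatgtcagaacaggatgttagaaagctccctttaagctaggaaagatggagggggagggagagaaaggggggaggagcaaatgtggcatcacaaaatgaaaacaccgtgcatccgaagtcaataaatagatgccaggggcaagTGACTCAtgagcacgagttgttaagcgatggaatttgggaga
Trem2, chr17:48346151-48346450, plus strand: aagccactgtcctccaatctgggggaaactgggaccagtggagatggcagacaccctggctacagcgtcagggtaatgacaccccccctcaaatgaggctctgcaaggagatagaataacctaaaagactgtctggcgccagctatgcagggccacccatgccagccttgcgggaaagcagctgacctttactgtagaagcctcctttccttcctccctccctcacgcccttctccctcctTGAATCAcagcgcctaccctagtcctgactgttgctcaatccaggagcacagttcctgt
Ctsd, chr7:142387778-142388077, minus strand: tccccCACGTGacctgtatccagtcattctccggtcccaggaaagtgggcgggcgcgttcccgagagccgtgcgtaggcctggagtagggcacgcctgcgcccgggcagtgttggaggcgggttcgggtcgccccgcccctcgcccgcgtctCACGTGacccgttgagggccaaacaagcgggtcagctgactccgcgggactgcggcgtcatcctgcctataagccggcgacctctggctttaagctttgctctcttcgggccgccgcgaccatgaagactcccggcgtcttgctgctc
The Spp1 window held GAGGAAGT beginning 113 bases before the RefSeq start of the gene, and the Trem2 window held TGANTCA 9 bases before it. In the Gpnmb window the match to TGANTCA lay 8 bases after the start, and none of the 4 windows other than that of Ctsd held CACGTG, which occurred there at 245 and at 98 bases before the start. Of 32851 windows of this length, 7.15% held CACGTG, 3.77% TCATGTG, 7.81% TGANTCA and 3.20% GAGGAAGT, and matches are given as letters, not as occupied sites. Among the 20 genes with the highest ratios described below, 17 had a window, and CACGTG was found in 3 of them (Cxcl3, Ctsd and Ass1), TCATGTG in 1 (Slc7a11), TGANTCA in 1 (Trem2) and GAGGAAGT in 1 (Mmp12).

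Spp1 lies on chromosome 5 at 104435118 to 104441050 and Gpnmb on chromosome 6 at 49036546 to 49070929, both on the plus strand of GRCm38 (GENCODE vM21), and Trem2 on chromosome 17 at 48346401 to 48354147. The members were chosen by their Spp1, Gpnmb and C1q UMIs, so the levels of these genes are a description. In wild type, 13 of 533 C1q-positive cells were members (2.44%, interval 1.30 to 4.13), and in AC8 110 of 673 (16.3%, 13.6 to 19.4), a difference of 13.9 percentage points (10.7 to 17.1). Spp1 had 54 UMIs in 11 wild-type members and 1095 UMIs in 99 AC8 members, whereas Gpnmb had 4 UMIs in 3 and 381 UMIs in 37. Spp1 alone was seen in 10 wild-type and 73 AC8 members, Gpnmb alone in 2 and 11, and both in 1 and 26. The wild-type members were nearly all cells with few UMIs of these genes: 8 had 1 UMI, 3 had 2, none had 3 to 9, and 2 had 10 or more. In AC8 the same steps held 40, 16, 23 and 31 cells, and the highest cell had 200 UMIs. Counting only cells with at least 3 UMIs, the shares were 0.383% in wild type and 8.75% in AC8.

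**Figure D1:**
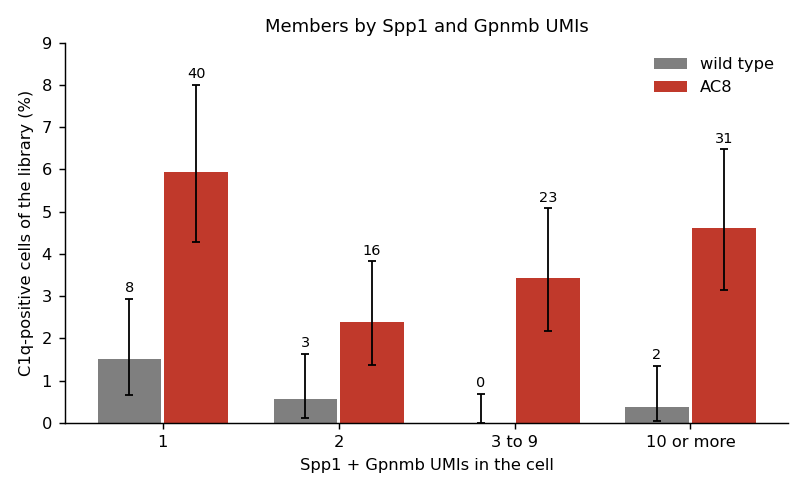
Share of each library's C1q-positive cells (vertical axis, %) that are members, by the number of Spp1 and Gpnmb UMIs in the cell (horizontal axis), with the number of cells above each bar and exact 95% binomial intervals. AC8 bars stand above the wild-type bar in all 4 steps, and wild type has 0 cells at 3 to 9 UMIs.

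Depth differed beside these shares. Members had medians of 3112 UMIs in wild type and 5240 in AC8, and the other C1q-positive cells 1933.5 and 2792. When each cell was first thinned to 1000 UMIs, 1.09% of wild-type and 8.98% of AC8 C1q-positive cells were members. Just outside the rule, 8 AC8 cells and 2 wild-type cells met every other part with 1 C1q UMI, and 1 and 0 with 2. Just inside it, 4 AC8 members and no wild-type member had 3 C1q UMIs. The lineage parts of the rule took the count from 20 to 13 in wild type and from 131 to 110 in AC8. Of the AC8 members, 94 had no UMI of Dcn, Col1a1 or Col3a1 and 16 had 1.

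Cells of other types gave a rough guide to the background from free RNA. Among cells gated as endothelial, a Spp1 or Gpnmb UMI was found in 1 of 502 in wild type and 2 of 409 in AC8 (0.489%, median depth 1445 UMIs), and among B cells in 1 of 107 and 5 of 268 (1.87%, median 1230). That wild-type endothelial cell held 59 Spp1 and 17 Gpnmb UMIs, and the highest AC8 B cell 6 of the pair. The shares may therefore not count free RNA alone. Fibroblast-gated cells were different: 4.66% in wild type and 7.40% in AC8 had a Gpnmb UMI, at medians of 2238 and 2800 UMIs, and 0.0542% and 0.580% had a Spp1 UMI. Among T cells it was 1 of 68 in wild type (1.47%) and 2 of 99 in AC8 (2.02%). The T cell gates had median depths of 1581 and 1714 UMIs. The interval of the wild-type member share includes the wild-type T cell value. In wild type the endothelial (0.199%) and B cell (0.935%) values lay below that interval and the fibroblast value for either gene (4.72%) above it. The AC8 share of 16.3% lay above those of the endothelial, B cell, T cell and fibroblast gates. It did not lie above that of the monocyte gate, where 9 of 52 AC8 cells (17.3%, 8.23 to 30.3) and 2 of 28 wild-type cells (7.14%) had a UMI of the pair. A single UMI does not tell an expressing cell from one with free RNA, and 8 of 13 wild-type and 40 of 110 AC8 members had only 1.

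The label was checked against markers the rule did not use. Trem2 and Lgals3, the other markers of the label, were detected in 85.5% and 92.7% of AC8 members, against 40.1% and 53.8% of the other AC8 C1q-positive cells. After thinning to 1000 UMIs the shares were 42.7% against 17.4% for Trem2 and 74.5% against 37.3% for Lgals3. General macrophage genes were near the level of the other cells: Adgre1 (the F4/80 antigen) stood at 285 against 308 CPM (UMIs of a gene per 1000000 UMIs of the set of cells), Spi1 at 381 against 386 and Mertk at 52.6 against 61.4. Csf1r, the receptor for the macrophage growth factor CSF1, was lower in AC8 members at 563 against 1119 CPM. In wild type the markers were weaker, with Trem2 in 7 of 13 members and Lgals3 in 7.

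Marker lists of other cell types differed in direction. Monocyte markers summed to 693 CPM in AC8 members and 626 in the other AC8 cells, dendritic cell markers to 94.0 and 95.1, and fibroblast markers outside the rule to 265 and 297. The 7 neutrophil markers summed to 28.7 CPM in members and 143 in the other cells, with S100a9 at 0 UMIs in members, the 8 cardiomyocyte markers to 23.9 and 61.9, and the 7 mural markers to 36.7 and 121. Endothelial markers outside the rule summed to 534 against 343 CPM, most of it Cd36 and Fabp4, which macrophages also express, and the T cell markers to 105 against 40.5 CPM, with 3 of the 6 outside the rule at 0. Whether these levels bear on the results was not tested. Doublet scoring marked 2 of 110 AC8 members (1.82%) and none of the 13 in wild type, close to 5 of 563 and 1 of 520 other cells.

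Clustering of all 1206 C1q-positive cells without the 12 genes of the rule placed the members unevenly. A cluster of 42 cells, 41 of them AC8, held 34 of the 123 members (27.6%) and 8 of the 1083 other cells (0.739%). This cluster was picked for holding the most cells with 10 or more Spp1 and Gpnmb UMIs, so its share of them is a description. It took 19 of the 31 AC8 members with 10 or more (61.3%), but 4 of the 40 with 1 UMI (10.0%). A second cluster of 119 cells, 104 of them AC8, held 55 members, and its shares by step were not computed. The remaining members lay in 9 of the 10 other clusters among other macrophages. Because 41 of 42 cells came from 1 library, the first cluster may be that library and not a type.

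Within the AC8 library, members had high levels of lipid-handling and lysosomal transcripts and low levels of those of resident cardiac macrophages. The fatty acid chaperone Fabp5, galectin-3, the elastase gene Mmp12, cathepsin D, lipoprotein lipase and the tetraspanin Cd9 were all at least 3-fold higher, and Lyve1, Cd163 and Timd4 at least 10-fold lower. Genes were called at least 2-fold higher or lower on log2 ratios with 10 CPM added to both levels, which understates the ratio of low genes. Both sets came from the same library, so library does not enter this comparison, but the rule split them by Spp1 and Gpnmb, and the values are a description.

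Of 7054 genes with at least 30 UMIs over both sets, 139 (1.97%) were at least 2-fold higher in AC8 members and 324 (4.59%) at least 2-fold lower, and the median log2 ratio over all of them was -0.10. In the lipid-associated list 16 of 24 genes were at least 2-fold higher and none lower, and the median log2 ratio was 1.41. Lgals3 was at 5451 CPM in members and 788 in the other cells, a ratio of 6.92 (6.50 to 7.37). Fabp5 was at 760 against 59.1 CPM (12.9-fold, 10.4 to 16.04), and 49.1% of members had a UMI of it. Ctsd was at 2611 against 485 CPM (5.39-fold, 4.96 to 5.86) and was detected in 90.0% of members. Lpl, which releases fatty acids from lipoproteins, was at 706 against 146 CPM, Cd9 at 1017 against 278 and Plin2, which coats lipid droplets, at 654 against 244. Apoe, the lipoprotein that carries cholesterol out of macrophages, did not share this pattern at 11324 against 11724 CPM. Cd36 and Lipa, the scavenger receptor and lysosomal lipase of the list, had log2 ratios of 0.59 each and were not called.

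Some of the highest ratios rested on few cells. Syngr1, a vesicle membrane gene, was at 104 against 4.50 CPM, with 27.7% of the members' UMIs in 1 cell. Slc7a11, the cystine importer, was at 135 against 8.44 CPM with 38.8% of its UMIs in 1 cell, and the neutrophil-attracting chemokine Cxcl3 at 300 against 40.5 CPM with 36.2%. By contrast no cell held more than 5.62% of the Ctsd UMIs, 5.32% of those of Lgals3 or 3.56% of those of Trem2. The other leading genes were Rgcc, the sheddase Adam8 (115 against 12.9 CPM), Ass1 of arginine synthesis, the lectin Clec4d, the kinase Sgk1, the glycolytic enzymes Pgam1 and Pgk1, annexin A1 (1251 against 364 CPM), the cathepsin inhibitor Cstb and Vat1.

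**Figure D2:**
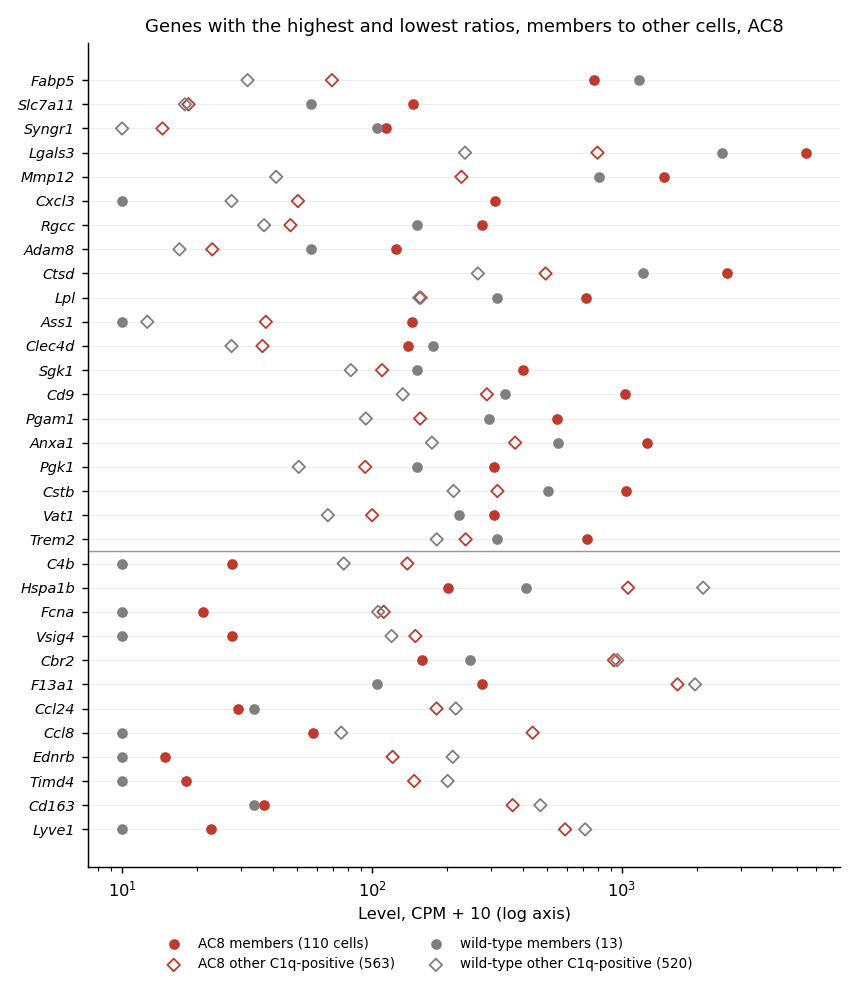
Levels (horizontal log axis, CPM with 10 added) of the 20 genes with the highest and the 12 with the lowest ratios of AC8 members to other AC8 C1q-positive cells, above and below the grey line. Filled circles are members and open diamonds the other cells, red for AC8 and grey for wild type; Lyve1 is at 12.8 CPM in AC8 members and 582 in the other cells, and points at 10 stand for 0 UMIs.

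Trem2 itself was at 716 CPM in AC8 members and 227 in the other AC8 cells, a ratio of 3.15 (2.75 to 3.62), but most of its pathway was not higher with it. Of 16 measured pathway genes, Trem2 was the 1 at least 2-fold higher and Cd33, an inhibitory receptor, the 1 at least 2-fold lower (44.6 against 116 CPM), with a median log2 ratio of -0.06. The adaptor Tyrobp was at 2845 against 2250 CPM, the kinase Syk at 87.7 against 165, the phosphatase Inpp5d at 104 against 156, and Plcg2 at 27.1 against 41.1. Ms4a7, a tetraspan protein of macrophages, was at 899 against 578 CPM, and Ms4a4a and Ms4a6d at log2 ratios of -0.28 and -0.07. Adam10 and Adam17, the sheddases that release soluble TREM2, had log2 ratios of 0.11 and 0.39.

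The receptors that bind osteopontin were mostly close to the other cells, 6 of 9 above 0 with a median log2 ratio of 0.27. Itgax (CD11c) was the exception at 139 against 42.2 CPM (3.28-fold, 2.38 to 4.53), while Itga9 was at 15.9 against 50.1. Cd44, the non-integrin receptor, was at 255 against 209 CPM, Itgb2 at 410 against 279, Itgb5 at 241 against 177 and Itgb1 at 242 against 343.

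Lysosomal genes were higher in part. Of 36 hydrolases and membrane proteins, 29 had a log2 ratio above 0 and 7 were at least 2-fold higher, with a median of 0.36. Those 7 were Ctsd, Cstb (1023 against 307 CPM), Cd63 (1078 against 464), Cd68 (1317 against 610), prosaposin (Psap, 5644 against 2622), Ctsz (1403 against 663) and Gla. The most common protease, Ctsb, was at 7390 against 4095 CPM, just under the threshold with a log2 ratio of 0.85, whereas Ctsc, which activates serine proteases, was lower at 1159 against 1976. The subunits of the proton pump that acidifies lysosomes were higher together by small amounts, 15 of 16 above 0 with a median of 0.57. Atp6v0d2, the subunit of osteoclasts and some macrophages, was at 51.0 against 3.94 CPM, and Atp6v1c1 at 190 against 79.4. The MITF, TFEB and TFE3 group showed no such shift in its own RNA: Mitf was at 112 against 94.6 CPM, Tfeb at 44.6 against 35.5 and Tfe3 at 62.2 against 65.3, and 0 of 7 genes were called.

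In lipid handling, 5 of 24 measured genes were at least 2-fold higher and none lower (median 0.30), namely Fabp5, Lpl, Plin2, the cholesterol ester hydrolase Nceh1 (112 against 42.8 CPM) and Olr1 (27.1 against 7.32). The cholesterol exporters differed, with Abcg1 at 65.4 against 32.7 CPM and Abca1 at 108 against 174. The matrix list held 7 genes at least 2-fold higher and 1 lower among 17. Mmp12 was at 1465 against 218 CPM but was detected in 29.1% of members, and Fn1 (fibronectin) at 465 against 157, Plaur (the urokinase receptor) at 405 against 137, Mmp14 at 68.5 against 22.0 and Timp1 at 33.5 against 7.88. F13a1, a transglutaminase of resident macrophages, was the lower one at 266 against 1658 CPM.

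Of 15 growth factor and cytokine genes that act on fibroblasts, Vegfa (66.9 against 5.07 CPM, with 31.0% of its UMIs in 1 cell) and Osm, oncostatin M (137 against 47.3 CPM), were at least 2-fold higher. Tgfb1 was at 438 against 397 CPM, Pdgfa at 59.0 against 29.8 and Igf1 at 328 against 346, so these well-known fibroblast factors were not called. Of 12 osteoclast genes 5 could be measured, and Atp6v0d2, the fusion gene Dcstamp (71.7 against 8.44 CPM) and the acid phosphatase Acp5 (78.1 against 27.6) were at least 2-fold higher, while Nfatc1 (36.7 against 53.5) and the RANK gene Tnfrsf11a (70.1 against 77.1) were not. The median of this short list was 1.23, and it lay between 0.16 and 1.47 in other settings.

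Glycolytic genes were higher together. Of 21 glycolysis and hypoxia genes, 20 had a log2 ratio above 0 and 6 were at least 2-fold higher (median 0.77), among them Pgam1 (537 against 146 CPM), Pgk1 (298 against 83.9), Aldoa (1129 against 479) and Pkm (803 against 372). Counted per cell, this list took a median of 0.630% of UMIs in members and 0.334% in the other cells, and 99 of 110 members were above the median of the other cells. In the AC8 monocyte gate the median was 0.487%, and 42 of 52 cells were above the median of the other C1q-positive cells. Nuclear genes of the respiratory chain were above 0 in 36 of 37, but none reached 2-fold and their median was 0.50. The peroxide and thiol enzymes Prdx1 (2067 against 775 CPM), Txn1 (523 against 205) and Prdx6 (163 against 69.2) were higher with Slc7a11, whereas the metallothionein Mt1 was lower at 2630 against 4746. Of 13 iron and heme genes, 4 had a log2 ratio above 0, 1 was at least 2-fold higher and 3 lower, with a median of -0.27. The higher one was the ferritin subunit gene Fth1 (23584 against 11020 CPM), while Ftl1, the other subunit, was under the threshold at 24800 against 13499 CPM. The iron exporter gene Slc40a1 was among the lower ones at 1.59 against 50.7 CPM. Against the other AC8 cells without a Lyve1 or Folr2 UMI, 0 of 12 iron and heme genes were called either way (median 0.08). Against those with at least 2 such UMIs, 1 of 13 was at least 2-fold higher and 4 lower (median -0.83).

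Genes of resident cardiac macrophages were lower almost throughout. Of 23 genes none had a log2 ratio above 0 and 20 were at least 2-fold lower, with a median of -2.15. Lyve1, a hyaluronan receptor, was at 12.8 against 582 CPM, a ratio of 0.0219 (0.00943 to 0.0433), the haemoglobin scavenger Cd163 at 27.1 against 355 and the phosphatidylserine receptor Timd4 at 7.97 against 137. The mannose receptor Mrc1 was at 186 against 861 CPM and Folr2 at 131 against 620. The list's median share of UMIs per cell was 0.503% in AC8 members and 1.35% in the other cells, and 16 of 110 members were above the latter. Ednrb, Ccl8, Ccl24, F13a1, Cbr2, Vsig4 and Fcna of the same list were also among the 12 lowest genes. The other two were the complement gene C4b (17.5 against 128 CPM) and the heat-shock gene Hspa1b (191 against 1047 CPM).

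The other AC8 C1q-positive cells were not uniform, so members were also set against subsets of them by Lyve1 and Folr2 UMIs. Against the 285 other cells without a UMI of either gene, 120 of 5269 genes (2.28%) were at least 2-fold higher and 104 (1.97%) lower. The lipid-associated list had 18 of its 24 genes at least 2-fold higher with a median of 1.39. All 20 leading genes were at least 2-fold higher too, but the reference that chose them holds these 285 cells. Of the 12 lowest genes, 2 were at least 2-fold lower against these cells, 1 at least 2-fold higher and 5 above 0. The resident genes, some of which define these subsets, had a median of -0.22 there. The class II antigen presentation genes went the other way: 6 of 7 were at least 2-fold lower in members (median -1.23), although against all other cells none was called (median -0.52). Against the 216 others with at least 2 Lyve1 or Folr2 UMIs, 225 of 5544 genes (4.06%) were at least 2-fold higher and 580 (10.5%) lower. All 20 leading genes were again among the higher ones, and these 216 cells were also part of the reference that chose them. Per cell, class II genes took a median of 2.59% of UMIs in members, 8.16% in those without Lyve1 or Folr2, and 0.223% in those with at least 2 UMIs. Members were thus above the first subset in lipid-associated genes and below it in class II genes.

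Monocyte genes gave a mixed picture. Of 18 genes of recruited monocytes, 4 were at least 2-fold higher in AC8 members (Fn1, F10, Thbs1 and S100a4) and 3 lower (S100a8, S100a9 and Ifitm6). Ccr2, the chemokine receptor of inflammatory monocytes, was at 135 against 117 CPM. Per cell, the list took a median of 2.32% of UMIs in members and 1.53% in the other cells, and 86 of 110 members were above the latter. Against the others with at least 2 Lyve1 or Folr2 UMIs, 8 of 15 genes were at least 2-fold higher and 1 lower. Against those with no UMI of either gene, 2 of 16 were higher and 2 lower. Against the 43 AC8 cells of the monocyte gate without Spp1 or Gpnmb, 440 of 3302 genes (13.3%) were at least 2-fold higher and 312 (9.45%) lower, but 23 of the 24 lipid-associated genes were higher by that measure, with a median of 2.36. Trem2 was at 76.8 CPM and Ctsd at 182 in those monocytes. Lgals3 was already high there at 2121 CPM, and 5 of the 20 leading genes, Rgcc (211 CPM), Ass1 (76.8), Clec4d (76.8), Pgk1 (202) and Adam8 (57.6), did not reach 2-fold. Against all 52 monocyte-gated cells, 1 of which had 257 Spp1 and Gpnmb UMIs, 7 of the 20 leading genes were at least 2-fold higher and 1 was below 0, with a median of 0.56. The 43-cell set and the wild-type set without 1 cell, given below, were chosen after the values were seen. With all 52 cells, 291 of 3464 genes (8.4%) were at least 2-fold higher in members and 237 (6.84%) lower, and the lipid-associated list had 14 of 24 higher.

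**Figure D3:**
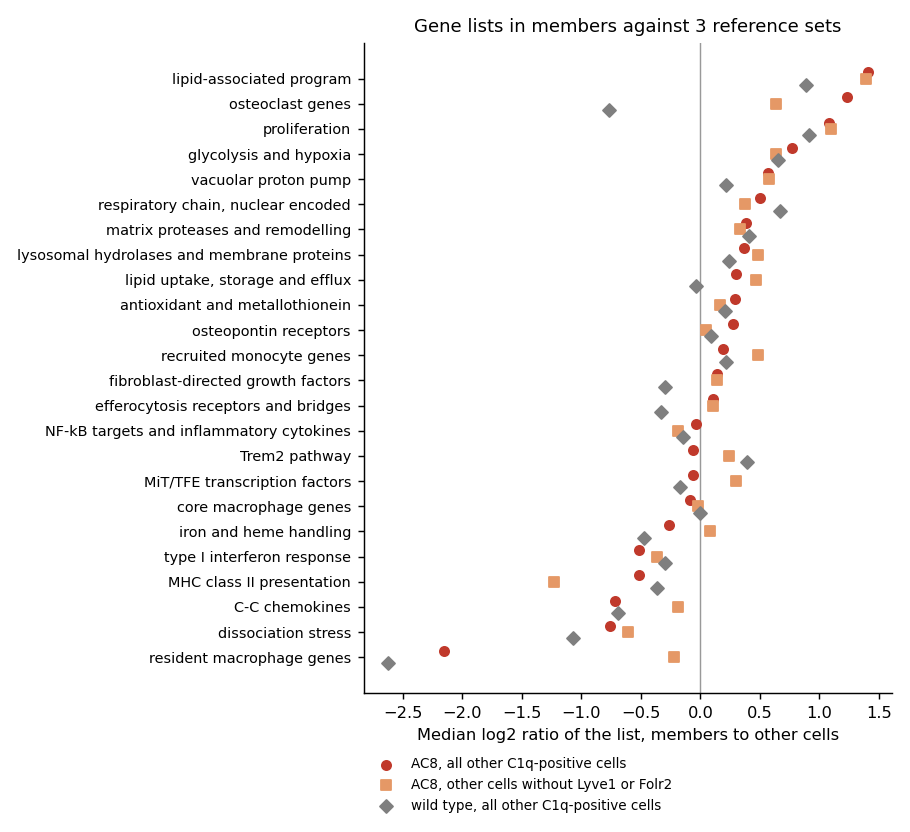
Median log2 ratio (horizontal axis, 10 CPM added) of each gene list in members against 3 sets of other C1q-positive cells, for AC8 in red and orange and wild type in grey. The lipid-associated list lies at 1.41 and 1.39 in AC8 and 0.89 in wild type, and the resident list at -2.15 against all other AC8 cells but -0.22 against those without Lyve1 or Folr2.

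Inflammatory genes showed no shift as a group. The NF-kB list had 13 of 29 genes above 0, 4 at least 2-fold higher and 2 lower, and a median of -0.04. The 4 were the neutrophil chemokine Cxcl1 (529 against 189 CPM), Ptgs2 (107 against 37.7), the interleukin 1 antagonist Il1rn (357 against 158) and Bcl2a1d, and the 2 lower genes were Ccl5 and Ccl7. Il1b was at 918 against 722 CPM, Tnf at 274 against 217 and Nfkbia at 1964 against 2020. C-C chemokines were lower more often, 5 of 11 at least 2-fold (Ccl5, Ccl7, Ccl8, Ccl12 and Ccl24), and the 1 higher gene, Ccl17, had 68.5% of its UMIs in 1 cell. Against the other AC8 cells without a Lyve1 or Folr2 UMI, 2 of 11 chemokines were at least 2-fold higher and 2 lower (median -0.19). The interferon list had none of 28 genes at least 2-fold higher and 4 lower (Ifit1, Ifit3, Oas2 and Rsad2), with a median of -0.52.

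Among genes for the uptake of dying cells, some of which are also on the resident list, Gas6, Pros1, Timd4, Stab1 and Dock1 were at least 2-fold lower and Anxa1 higher, 5 and 1 of 15 measured. The list had 8 genes above 0 and a median of 0.11, with Mertk and Axl at log2 ratios of -0.19 and 0.33. Against the other AC8 cells without a Lyve1 or Folr2 UMI, 2 of 14 were at least 2-fold higher and 1 lower (median 0.10). Early-response and heat-shock genes, which tissue digestion is known to induce, also differed. Of 30 such genes 28 were below 0 and 11 at least 2-fold lower in AC8 members, with a median of -0.76, and they took a median of 4.02% of UMIs per member and 7.39% per other cell. Fos was at 4170 against 7305 CPM and Jun at 2185 against 5601. In the AC8 monocyte gate the list took a median of 2.78% of UMIs, and 1 of 52 cells was above the median of the other C1q-positive cells. The part of these genes in the other results was not tested.

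Levels within the AC8 members followed the number of Spp1 and Gpnmb UMIs. From 0 through 1, 2, 3 to 9, and 10 or more UMIs, Lgals3 was at 788, 1878, 2930, 6255 and 8815 CPM, and Fabp5 at 59.1, 143, 309, 588 and 1519. Ctsd stepped to 1294 CPM at 1 UMI and reached 4262 at 10 or more. Trem2 differed in shape, since most of its step lay between 0 (227 CPM) and 1 UMI (578), and it was at 851 in the highest members. Ccr2 was highest at 1 UMI (244 CPM) and lowest at 10 or more (26.04), while Csf1r stood at 1119, 727, 606, 627 and 378. Median depth also differed between these steps, with 4045 UMIs in members with 1 and 7360 in those with 10 or more. Between those ends 139 of 1991 genes (6.98%) were at least 2-fold higher and 101 (5.07%) lower, and 16 of 23 lipid-associated genes were higher (median 1.33). In the 40 members with 1 UMI, 15 of the 20 leading genes were at least 2-fold higher than in the cells with none. All 12 of the lowest genes were at least 2-fold lower in them. These genes were chosen from a comparison that holds the same cells, so the counts are a description. The share over all genes was not computed for this step.

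**Figure D4:**
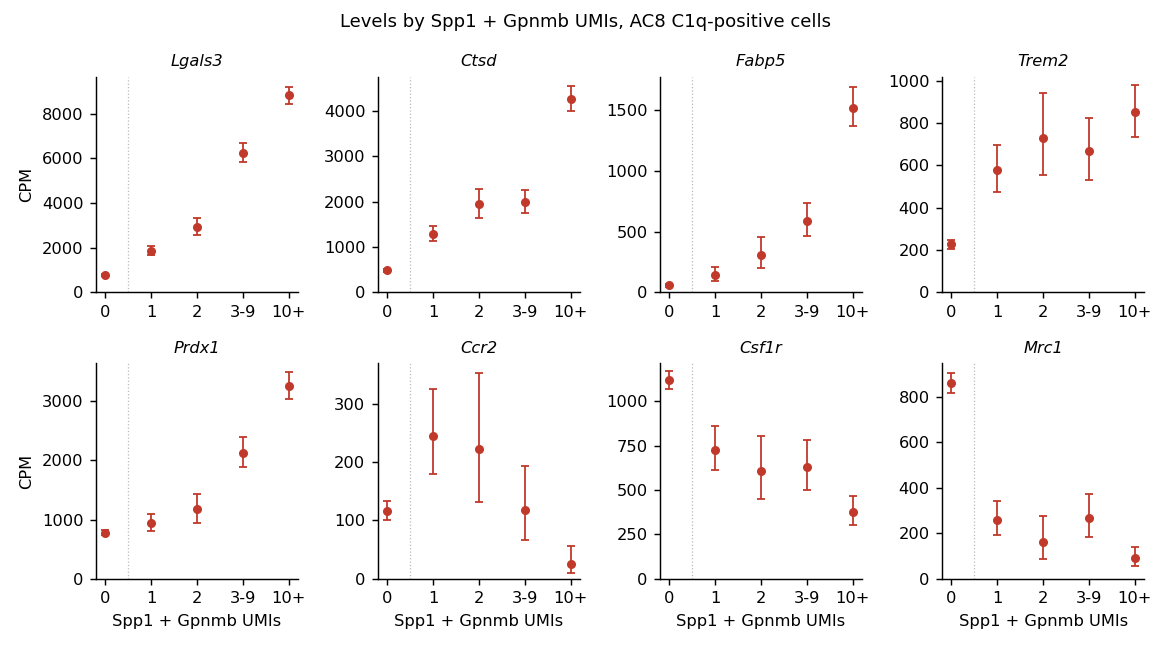
Levels (vertical axes, CPM from 0, with exact 95% Poisson intervals) of 8 genes in AC8 C1q-positive cells by Spp1 and Gpnmb UMIs; the dotted line parts the other cells (0 UMIs) from members. Lgals3, Fabp5 and Prdx1 are higher at each further step, and Ccr2 is highest at 1 UMI.

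Single cells varied widely around these sums. The lipid-associated list took between 0.537% and 11.8% of UMIs in AC8 members, with a median of 4.14% against 1.93% in the other cells, and 85 of 110 members were above that median. By step the medians were 2.20% at 1 UMI and 5.50% at 10 or more. In wild type the members' median of 1.46% was below the 1.54% of the other cells, and 6 of 13 were above it. Resident genes, in contrast, were low in the members of both libraries, with 0 of 13 wild-type members above the median of the other cells.

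**Figure D5:**
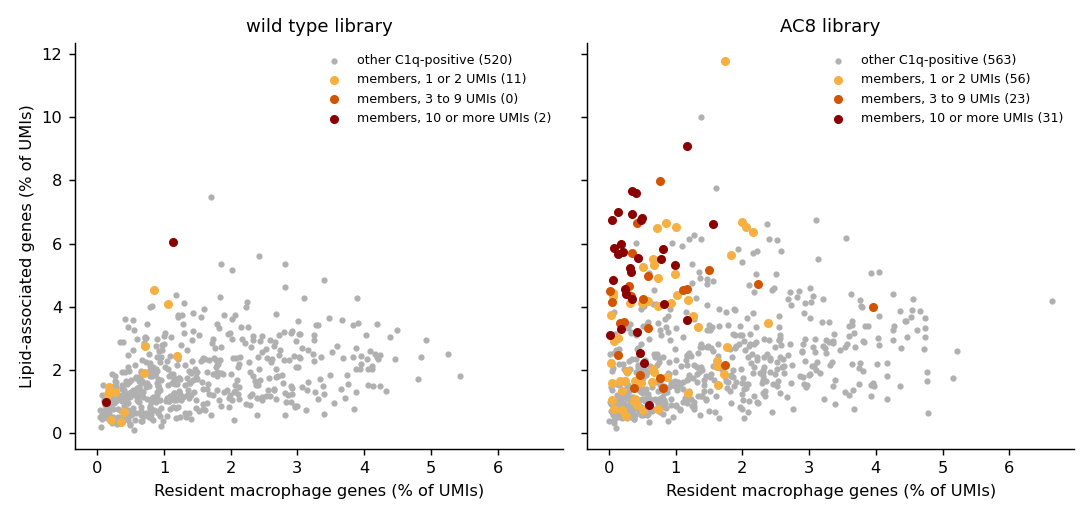
Each point is 1 C1q-positive cell, placed by its share of UMIs from resident macrophage genes (horizontal axis, %) and from lipid-associated genes (vertical axis, %), with members coloured by their Spp1 and Gpnmb UMIs. AC8 members with 10 or more UMIs have a median lipid-associated share of 5.50%, and grey cells reach 10.0%, so the sets overlap.

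Members with both transcripts had the highest median share of lipid-associated RNA. The 26 AC8 cells with Spp1 and Gpnmb took a median of 5.61% of UMIs from lipid-associated genes, the 73 with Spp1 alone 3.31% and the 11 with Gpnmb alone 4.12%. Cells with both were also deeper, with medians of 6938.5 UMIs in all and 24 of the pair, against 4762 and 1 with Spp1 alone. Whether carrying both genes matters beyond depth and the number of these UMIs was not tested. Between the first sets, 72 of 2620 genes (2.75%) were at least 2-fold higher in cells with both and 153 (5.84%) lower. Fabp5 was at 2022 against 232 CPM, Syngr1 at 288 against 27.8, the aminopeptidase Anpep at 141 against 25.3, Atp6v0d2 at 124 against 22.7 and the lysosomal enzyme Naglu at 119 against 25.3. Isg15 was at 418 against 98.5 CPM, but 1 cell held 50.8% of its UMIs over all AC8 members. On the lower side were Folr2 (11.3 against 184 CPM), Pilra (5.65 against 121), the prostaglandin-degrading enzyme Hpgd (39.5 against 275) and Retnla (33.9 against 220), and 8 of 13 resident genes were at least 2-fold lower.

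Cell-cycle genes differed among the members. Mki67 had 0 UMIs in the 26 cells with both genes, where 3 UMIs would be 16.9 CPM, and was at 119 CPM in those with Spp1 alone, and Top2a was at 11.3 against 114 CPM. Cells with at least 3 of 10 core cell-cycle genes made up 9 of 110 AC8 members (8.18%, 3.81 to 14.96) and 10 of 563 other cells (1.78%, 0.855 to 3.24). They were 8 of the 73 members with Spp1 alone (11.0%, 4.85 to 20.5) and 1 of the 26 with both (3.85%, 0.0973 to 19.6), intervals that overlap over most of their length. In wild type 2 of 13 members and 9 of 520 other cells met this count. Cycling cells were not thinned for depth here, and members were deeper.

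The wild-type members were few, and 1 cell held most of their Lgals3, Ctsd and Fabp5 UMIs. Of 5079 genes, 477 (9.39%) were at least 2-fold higher than in the other wild-type cells and 1044 (20.6%) lower. Among 21 measured lipid-associated genes 8 were higher and 1 lower, with a median of 0.89. Lgals3 was at 2502 against 225 CPM, Ctsd at 1204 against 255 and Fabp5 at 1157 against 21.8, but the single cell with both Spp1 and Gpnmb held 73.6%, 64.7% and 98.0% of the members' UMIs of these genes. Without it, Lgals3 was at 789 CPM, Ctsd at 507 and Fabp5 at 28.2 in the other 12 members, and 4 of 20 lipid-associated genes were at least 2-fold higher (median 0.49). Over all genes its removal made little difference to the count, with 490 of 5060 (9.68%) at least 2-fold higher. Of the 20 leading AC8 genes, 16 were at least 2-fold higher in wild-type members with that cell and 6 without it. Trem2 was at 307 against 172 CPM, a ratio of 1.79 whose interval of 0.936 to 3.13 includes 1.

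The lower genes did not rest on that cell. With 10 CPM added, all 12 of the lowest AC8 genes were at least 2-fold lower in wild-type members with it and without it. By the same measure the resident list had 19 of 22 genes at least 2-fold lower with it and 20 of 22 without it. Over all genes, 1044 of 5079 (20.6%) were at least 2-fold lower with it and 1147 of 5060 (22.7%) without it. Of the 12 genes, 7 were at 0 UMIs in wild-type members, where the floor limits what can be shown. Lyve1 had 0 UMIs in wild-type members against 703 CPM in the other cells, at least 9.92-fold lower when 3 UMIs over the members are taken as the floor. By that floor Timd4 and Ednrb were at least 2.69 and 2.83-fold lower, but Vsig4 and Fcna only at least 1.55 and 1.35-fold. The rest of the genes at 0 UMIs had no such bound, so a 2-fold difference is not shown for them. Fn1 was higher at 826 against 18.3 CPM, and Ccr2 at 330 against 66.2.

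Set directly against each other, AC8 members had more lipid-associated and glycolytic RNA than wild-type members. Of 3015 genes 373 (12.4%) were at least 2-fold higher in AC8 members and 248 (8.23%) lower, with 42366 UMIs in the wild-type members and 627367 in the AC8 members. In the lipid-associated list 23 of 24 genes were above 0 and 9 at least 2-fold higher, with a median of 0.88, and in the glycolysis list 6 of 15 were at least 2-fold higher, with a median of 0.90. Between the other cells of the libraries, 50 of 7634 genes (0.655%) were at least 2-fold higher in AC8 and 32 (0.419%) lower. In these lists the other C1q-positive cells differed in the same direction, with 20 of 22 lipid-associated genes above 0, 5 at least 2-fold higher and a median of 0.44, and 15 of 20 glycolysis genes above 0 and a median of 0.52. Whether the shift in members exceeds that in the other cells was not tested. Lgals3 was at 5451 against 2502 CPM, Ctsd at 2611 against 1204, Trem2 at 716 against 307 and Cd9 at 1017 against 330. The 6 highest genes, Cxcl3, Gdf15, Soat1, Itgax, Osm and Ass1, had 0 UMIs in wild-type members, where 3 UMIs are 70.8 CPM, and were at least 4.23, 2.14, 2.05, 1.96, 1.94 and 1.89-fold higher. The 6 lowest were Stk17b (94.0 against 543 CPM), Runx1 (62.2 against 354), Dusp2, Jmjd1c, Rock2 and Nfkbie. Stk17b and Runx1 were also lower in the other AC8 cells than in the other wild-type cells, at 281 against 512 and 186 against 314 CPM, the same direction as in the members. High members also made up a larger part of the AC8 set, 54 of 110 with at least 3 Spp1 and Gpnmb UMIs against 2 of 13.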

How the data were processed

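Cells from untreated wild-type and AC8-overexpressing mouse hearts were measured in 1 pooled droplet library per genotype. The deposited values are raw UMI counts per gene and cell, made by the authors with Cell Ranger (version not given in the sources used here) on mm10, per the submitters' processing notes. Which cells the authors removed is not stated, and the lowest deposited cell total is 500 UMIs. The counts list 22441 gene symbols, of which 22039 matched GENCODE vM21 for gene positions; symbols alone cannot separate near-identical copies, and counting by strand is not stated.

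Counts were summed over each set of cells and divided by the set's total to give CPM in pandas 2.3.3, with intervals from scipy 1.17.1 under Python 3.11.15. With 1 library per genotype no test or p-value was computed. Genes needed 30 UMIs over both sets, and a difference was called at a log2 ratio of 1 or more, in either direction, of CPM plus 10. Printed ratios are of plain CPM, with exact binomial intervals, and levels have exact Poisson and shares exact Clopper-Pearson intervals at 95%. For a gene at 0 UMIs, 3 UMIs over the set were used as a floor. Among members and other cells of both libraries, UMIs per set ranged from 42366 in wild-type members to 1776230 in the other AC8 cells. A count of 0 thus allows up to 70.8 CPM in the first and 1.69 CPM in the second. Some subsets were smaller, as the 12 wild-type members without the cell with both genes held 35496 UMIs (floor 84.5 CPM). Expression levels were compared within a gene, not between genes. The log2 ratio calculation was tested on simulated data.

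Genes named are the 20 with the highest and 12 with the lowest ratios of AC8 members to other cells that had at least 100 CPM and were detected in 10% of cells in the higher set and reached 20% of their level in the highest of the gated cell types. Added to these were the 6 at each end of the other 2 comparisons, and from each list up to 4 genes with the largest ratios and those past 2-fold, beside the Trem2, osteopontin receptor, MITF and osteoclast lists. Genes used to check the label or to show a list's best-known members were added after their values were seen. Gates for fibroblasts, endothelial cells, B cells, T cells and monocytes used UMIs of marker genes. Doublets were scored against simulated doublets at 0.8% per 1000 cells, and scored cells were kept in the values given. Clustering used the Leiden method (leidenalg 0.10.2, igraph 0.11.9, scikit-learn 1.9.0) on 1500 genes, 15 components and 15 neighbours at resolution 0.8. The members and lists were chosen with earlier results of these data known. Alternatives changed the UMI, depth, C1q, mitochondrial and low-count limits, the pseudocount, the doublet handling, the gene that chose the members and the exclusion of other lineages.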

Additional observations from a re-analysis of the deposited data

Results flagged for a closer look

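A total of 3 genes had opposite ratios in the libraries. Cxcl3 had a log2 ratio of members to other cells of 2.62 in AC8 and -1.45 in wild type, Itgax (CD11c) of 1.51 and -1.45, and Osm of 1.36 and -2.37. In the wild-type members each of them had 0 UMIs, where 3 UMIs would be 70.8 CPM, and the other wild-type cells were at 17.4, 17.4 and 41.8 CPM, all under that floor. The difference between the libraries was not tested.

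Cells with much Spp1 and Gpnmb RNA were also found outside the rule. Of 50 AC8 cells with 10 or more UMIs of the pair, 31 were members and 19 were not, and 14 of the 19 had fewer than 3 C1q UMIs. In wild type 3 of 5 such cells lay outside. The highest cell outside the rule had 257 UMIs in AC8 and 76 in wild type. Gpnmb UMIs were also present in 7.40% of the AC8 cells gated as fibroblasts and in 4.66% of those in wild type, while Spp1 UMIs were in 0.580% and 0.0542%.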

How the results depend on the processing

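The member share was higher in AC8 in all 10 alternatives. Its difference of 13.9 points became 8.37 with at least 3 Spp1 and Gpnmb UMIs, 7.88 after thinning to 1000 UMIs and 4.93 with Gpnmb alone. The counts of called genes moved with the limits, and the cause was not tested. In AC8, the 139 genes higher in members became 232 with a pseudocount of 1 CPM and 73 with at least 100 UMIs, and the 324 lower genes became 727, 191 and, with at least 3 Spp1 and Gpnmb UMIs, 574. After thinning, 119 genes were higher, of which 55 were among the 139. In wild type, the 477 higher genes became 1038 with at least 3 Spp1 and Gpnmb UMIs, 1364 without a low-count filter and 120 with at least 100 UMIs. Between the members of the libraries, the 373 genes higher in AC8 became 93 after thinning, 1933 without a filter and 79 with at least 100 UMIs, and the 248 lower genes became 31, 1589 and 34. None of the 20 highest and 12 lowest AC8 genes, which were picked for their large ratios, changed sign under these alternatives. The other named genes were not rerun. The medians of several lists near 0 crossed it: matrix proteases (-0.08 to 0.52), growth factors (-0.07 to 0.17) and efferocytosis (-0.10 to 0.18). So did those of NF-kB (-0.08 to 0.07), MITF, TFEB and TFE3 (-0.18 to 0.16) and iron (-0.50 to 0.01). The median of the lipid-associated list lay between 1.12 and 1.67, that of the resident list between -2.38 and -1.98 and that of the dissociation list between -0.80 and -0.58. The proliferation list ranged from 0.32 to 1.31. Weighting cells equally and matching the other cells for depth, both added after seeing the data, gave 136 and 111 higher genes, 115 and 94 of them among the 139. No paired analysis was possible because each genotype has 1 library and the labels carry no replicate numbers.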
